A study of Mus musculus with 6 samples.

Results

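The genes described here are the translation initiation factors of the mouse, taken as every row of the deposited expression table whose gene identifier maps to a symbol made of Eif and a digit. The rule leaves out *Eif4a3*, whose protein is a core part of the exon junction complex, and the *Eif2ak* genes, which encode kinases. It dropped 5 of 53 such rows and kept 48, of 13426 rows in all. The rule itself uses symbols and no measured value, but the set was taken up with earlier results of these data known. RNA sequencing had been done on large pre-B cells of the early stage (early LPre-B) sorted from bone marrow, at which V segments of the immunoglobulin heavy chain locus are joined, in 3 libraries per group. Control (Ctrl) mice carried Upf1 Flox/Flox with Mb1 +/+, and Upf1-cKO mice carried Upf1 Flox/Flox with Mb1 Cre/+, so that both groups had loxP sites around internal exons of *Upf1* and only the second had a Cre recombinase, expressed in the B lineage from 1 allele of *Cd79a* (Mb1). Per the study's methods, the study used age-matched adult mice of both sexes on a C57BL/6 background, with the sexes in these libraries not given, and data points were independent biological replicates. UPF1 is the central helicase of nonsense-mediated mRNA decay (NMD), and the comparison asks how the mRNAs of the initiation machinery differed between the genotypes.

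Initiation places a ribosome on the start codon of an mRNA. The eIF4F complex, made of the cap-binding protein eIF4E, the scaffold eIF4G and the RNA helicase eIF4A, takes up the capped end of the mRNA, and the 4E-BP proteins hold eIF4E away from eIF4G. The small ribosomal subunit carries eIF1, eIF1A, eIF3, eIF5 and a ternary complex in which eIF2 brings the initiator tRNA, eIF2B exchanges the nucleotide on eIF2 after each round, and eIF5B joins the large subunit. Early LPre-B cells are cycling cells, a state in which much protein is made.

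Levels are given as normalised reads, which are the reads of a gene plus 0.5 per 1e6 reads of an effective library size. Values of 3 libraries are listed in the order of replicates 1, 2 and 3. Total reads were between 9732498 and 11006834 per library. *Upf1* itself gave 260.0, 203 and 259 in Ctrl libraries and 308, 283 and 299.7 in cKO-labelled libraries (log2 fold change 0.31, SE 0.089, adjusted p = 0.00696), so the level of the targeted gene went against the label (adjusted p = 0.0645 with median centring and 0.0707 without an intensity trend). The row sums reads along all of *Upf1*, with the floxed exons not told apart from the rest, and for that reason the libraries are called cKO-labelled below and every direction rests on the labels. The study reports that UPF1 protein was lost from pro-B and early LPre-B cells of its Upf1-cKO mice. Other rows went the way the labels say. *Cd79a*, the locus that carries Cre in 1 allele of the Upf1-cKO mice, gave 234, 215 and 213 in Ctrl libraries and 71.6, 75.2 and 73.0 in cKO-labelled libraries (log2 fold change -1.58, SE 0.077, adjusted p = 1.24e-11). *Gas5*, *Ddit3* and *Gadd45b*, known targets of NMD that the study also used and that were picked here with their values seen, were higher in all cKO-labelled libraries than in any Ctrl library (log2 fold change 2.33, 3.29 and 1.96, adjusted p = 2.34e-07, 2.36e-14 and 1.51e-09). All 11 B lineage markers had a row, with a summed level between 2775 and 2997 in Ctrl libraries and between 2604 and 2726 in cKO-labelled libraries. Of 10 myeloid markers, 6 were called higher and 1 lower, and their summed level ran from 67.4 to 143 in Ctrl libraries and from 290 to 399 in cKO-labelled libraries, with *Ltf* and *S100a9* holding the most reads in the latter. T and NK cell markers had 2 of 8 listed genes in the table, with sums of at most 1.59 in Ctrl libraries and between 3.79 and 5.27 in cKO-labelled libraries, of which *Klrb1c*, an NK cell receptor, was called higher (log2 fold change 1.40, SE 0.22, adjusted p = 2.62e-05), and 3 of 7 erythroid markers were present with none called. The part of the myeloid and NK cell transcripts in the results below was not tested.

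Among the 48 initiation factor genes, 21 were lower and 5 higher in libraries labelled Upf1-cKO, with 22 short of the threshold. The members called lower took in *Eif4ebp2*, *Eif1ax*, *Eif1b*, *Eif5a* and *Eif3m*, the 5 with the largest falls, and the members called higher were *Eif4a2*, *Eif4ebp1*, *Eif5*, *Eif2b3* and *Eif2b2*. Here and below, a call stands for an adjusted p under 0.05 in limma, fitted over all 13426 rows. Over all rows, 25.0% were called lower, 27.7% higher and 52.7% in either direction. Lower calls therefore made up 43.8% of the initiation factors and higher calls 10.4%. The libraries of the groups did not overlap for 26 of the 48 (54.2%), against 58.8% of all rows. The median log2 fold change of the 48 was -0.19, and that of all rows was 0.01. In a fit limited to the 9202 rows with a mean log2 value of at least 3, 2879 rows were called lower and 2642 higher. There the median of all rows was -0.031, and of 47 members 22 were called lower and 5 higher. At least 30 reads were recovered in every library for 47 of the members, and only *Eif3j2* had fewer. Because whole cell populations were sequenced, fewer cells of a type and less RNA per cell cannot be told apart.

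**Figure D1:**
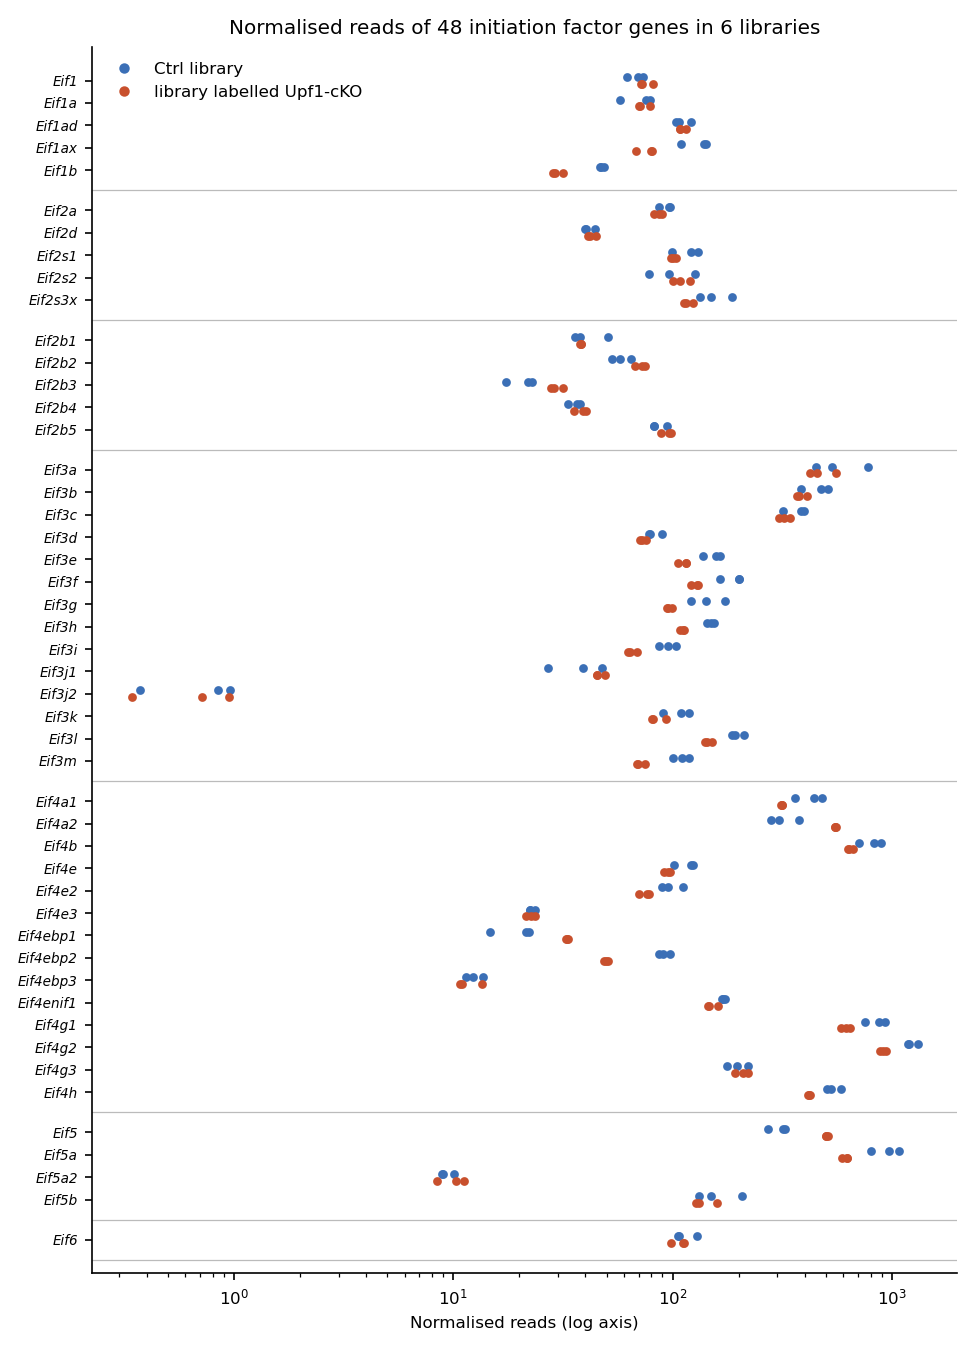
Normalised reads (log axis) of each of the 48 initiation factor genes, with 1 point per library, 3 Ctrl libraries in blue and 3 libraries labelled Upf1-cKO in red, and lines between factor groups. *Eif4a2*, *Eif4ebp1* and *Eif5* show red points to the right of all blue ones, and most eIF3 and eIF4 genes show them to the left.

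The split of calls depended on how libraries were scaled. A row with no name in the annotations used took 22.2, 23.8 and 16.4% of the reads of Ctrl libraries and between 13.8 and 16.5% of those of cKO-labelled libraries. When libraries were scaled to their total reads, the median of all rows moved to 0.19, 14 members were lower and 10 higher, and higher genes made up 72.8% of all calls instead of 52.6%. With every library centred on its own median, that of all rows moved to -0.098, 26 members were lower and 4 higher, and higher genes made up 40.7% of all calls. Relative to the median of all rows, the median of the members was lower by 0.20 on the log2 scale as deposited, by 0.20 with median centring, by 0.18 with total reads and by 0.074 with quantile normalization. No called member changed direction under any of the 16 alternatives, and the call was kept in all of them by 4 of the 5 higher and 13 of the 21 lower members.

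**Figure D2:**
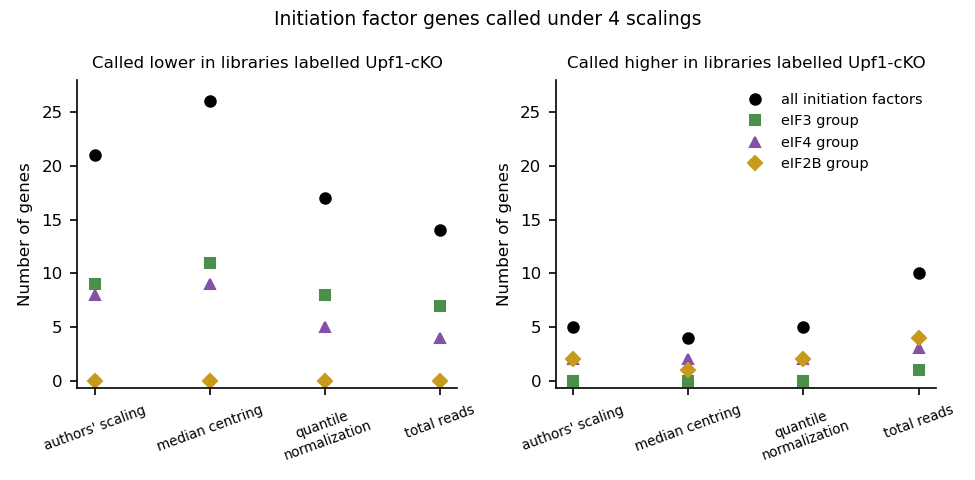
Number of initiation factor genes called lower (left) and higher (right) in the libraries labelled Upf1-cKO under 4 ways of scaling the libraries, for all 48 members (black circles), the eIF3 group (green squares), the eIF4 group (purple triangles) and the eIF2B group (yellow diamonds). Lower calls among all members fell from 21 to 14 with scaling to total reads, and the eIF3 group kept 7 to 11 lower calls.

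The factors that act at the cap formed, with eIF3, the larger of the groups. Of the 14 *Eif4* genes, 8 were lower and 2 higher, with a median log2 fold change of -0.30. Lower calls went down to 5 with quantile normalization (2 higher, median -0.13) and to 4 with scaling to total reads (3 higher, median -0.097), and with median centring there were 9 (median -0.41). Without the 4E-BPs and *Eif4enif1*, 7 of 10 were lower, 1 was higher and the median was -0.34.

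The helicase genes of eIF4A moved apart. *Eif4a2* had normalised reads of 280.0, 307 and 379 in Ctrl libraries and 548, 558 and 549 in cKO-labelled libraries. Every cKO-labelled library was above the highest Ctrl library. The mean rose from 322 ± 51.1 (SD, n = 3) to 552 ± 5.12 (SD, n = 3), a ratio of 1.71 (log2 fold change 0.79, SE 0.090, adjusted p = 8.49e-07), the largest rise among the members. *Eif4a1*, the more abundant paralogue per length in Ctrl libraries, had normalised reads of 363, 480.2 and 440.4 in Ctrl libraries and 317, 315 and 313 in cKO-labelled libraries. Every cKO-labelled library was below the lowest Ctrl library, and the level was 26.4% lower (log2 fold change -0.43, SE 0.087, adjusted p = 4.10e-04). *Eif4b* and *Eif4h*, whose proteins stimulate the helicase, were both lower, with 706, 890.0 and 832 in Ctrl libraries and 636, 662 and 635 in cKO-labelled libraries for *Eif4b* (log2 fold change -0.32, SE 0.080, adjusted p = 0.00241). For *Eif4h* the libraries gave 526, 588 and 508 in Ctrl libraries and 414, 419 and 423 in cKO-labelled libraries (log2 fold change -0.36, SE 0.073, adjusted p = 3.54e-04). These 2 calls were lost with quantile normalization and with scaling to total reads, where *Eif4b* had adjusted p = 0.220 and 0.267, and *Eif4h* 0.113 and 0.0820.

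Of the scaffold genes, *Eif4g1*, which encodes the main eIF4G protein, gave 756, 928 and 874 in Ctrl libraries and 615, 644 and 588 in cKO-labelled libraries (log2 fold change -0.46, SE 0.079, adjusted p = 6.98e-05). *Eif4g2*, whose protein (DAP5) lacks the eIF4E-binding part, gave 1180.3, 1313 and 1203 in Ctrl libraries and 938, 911 and 882 in cKO-labelled libraries (log2 fold change -0.44, SE 0.068, adjusted p = 3.09e-05). Groups did not overlap for either gene. The third scaffold gene, *Eif4g3*, gave 196, 178 and 219.9 in Ctrl libraries and 209, 221 and 193 in cKO-labelled libraries, with overlapping groups (log2 fold change 0.071, SE 0.086, adjusted p = 0.511). With quantile normalization the call of *Eif4g2* was lost (log2 fold change -0.094, adjusted p = 0.260), and with scaling to total reads *Eif4g3* was called higher (log2 fold change 0.27, adjusted p = 0.0265).

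Cap-binding proteins are encoded by *Eif4e* and its relatives *Eif4e2*, whose protein takes part in repression of translation, and *Eif4e3*. *Eif4e* gave 102, 121 and 124 in Ctrl libraries and 95.7, 97.8 and 91.5 in cKO-labelled libraries (log2 fold change -0.28, SE 0.087, adjusted p = 0.0120). For *Eif4e2* the values were 89.5, 112 and 95.0 in Ctrl libraries and 70.0, 76.8 and 77.9 in cKO-labelled libraries (log2 fold change -0.39, SE 0.093, adjusted p = 0.00173). Both were lower with no overlap between groups, whereas *Eif4e3* stayed between 21.5 and 23.7 in all 6 libraries and was not called (adjusted p = 0.935). The call of *Eif4e* was lost without Upf1-cKO replicate 3 (log2 fold change -0.25, adjusted p = 0.0622), and both calls were lost with scaling to total reads (adjusted p = 0.518 and 0.107).

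The genes of the 4E-BPs, the inhibitors of eIF4E that TOR kinase releases by phosphorylation, changed in opposite directions. *Eif4ebp1* gave 22.1, 21.5 and 14.7 in Ctrl libraries and 32.5, 33.0 and 33.3 in cKO-labelled libraries. The lowest cKO-labelled library stood above the highest Ctrl library, and Ctrl replicate 3 was the lowest of all. Its mean rose from 19.5 ± 4.09 (SD, n = 3) to 32.9 ± 0.359 (SD, n = 3) (log2 fold change 0.75, SE 0.14, adjusted p = 1.47e-04). *Eif4ebp2* gave 97.5, 90.8 and 86.7 in Ctrl libraries and 49.5, 51.0 and 48.5 in cKO-labelled libraries. No cKO-labelled library reached the Ctrl range. This was the largest fall among the members, from 91.7 ± 5.42 (SD, n = 3) to 49.7 ± 1.24 (SD, n = 3), or 45.8% (log2 fold change -0.87, SE 0.086, adjusted p = 1.20e-07). *Eif4ebp3* gave 13.7, 11.5 and 12.3 in Ctrl libraries and 13.5, 10.8 and 11.0 in cKO-labelled libraries and was not called (adjusted p = 0.676). *Eif4enif1*, which encodes the eIF4E transporter 4E-T, ran from 168 to 174 in Ctrl libraries and from 145 to 162 in cKO-labelled libraries, without overlap but short of the threshold (log2 fold change -0.18, SE 0.076, adjusted p = 0.0573), which it passed without Upf1-cKO replicate 2 (log2 fold change -0.23, adjusted p = 0.0450).

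**Figure D3:**
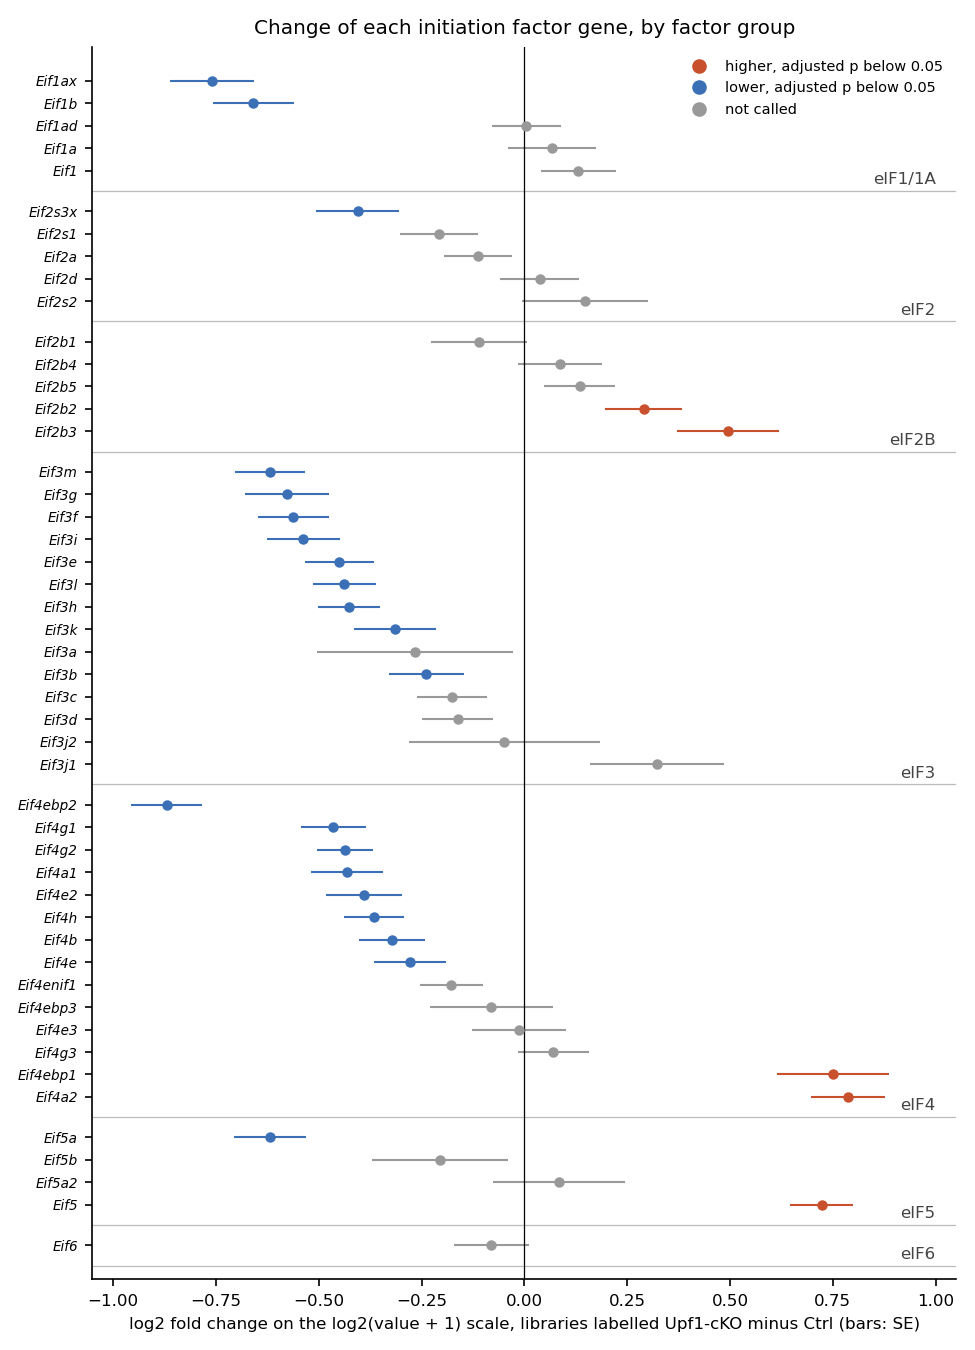
Log2 fold change of each initiation factor gene on the log2(value + 1) scale, libraries labelled Upf1-cKO minus Ctrl, with bars of 1 SE from limma, grouped by factor. Red points were called higher, blue points lower and grey points were not called, and under scaling to total reads 14 genes were called lower and 10 higher.

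*Eif4a2* lies on chromosome 16 (23107468 to 23114132, plus strand, GRCm38) and holds 5 annotated small nucleolar RNA (snoRNA) genes in its introns, of which *Snord2* and *Snora81* had rows of their own. snoRNAs are released from spliced introns of their host and guide modification of ribosomal RNA or spliceosomal RNA, so that a host gene yields an mRNA and a stable small RNA from 1 transcript. *Snord2* is shown because it moved against its host, and *Snora28*, which lies in *Eif5*, because its host also rose, to 1.65 times the Ctrl mean. Sequences are from the genome at the GENCODE annotation, both on the plus strand, with the last CTGA letters of *Snord2* (those of a D box) and the last ACA letters of *Snora28* (those of an ACA box) in capitals.
Snord2 (chr16:23108953-23109021, GRCm38, plus strand): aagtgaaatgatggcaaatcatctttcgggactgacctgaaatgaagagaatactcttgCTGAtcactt
Snora28 (chr12:111540941-111541067, GRCm38, plus strand): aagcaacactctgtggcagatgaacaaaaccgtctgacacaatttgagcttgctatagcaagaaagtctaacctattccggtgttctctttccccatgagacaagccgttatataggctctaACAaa

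*Snord2* had normalised reads of 9.08, 9.24 and 8.69 in Ctrl libraries and 5.90, 6.27 and 5.10 in cKO-labelled libraries. All cKO-labelled libraries were below all Ctrl libraries, while the host was higher in all of them (log2 fold change -0.57, SE 0.17, adjusted p = 0.00787 for *Snord2*). With scaling to total reads this call was lost (log2 fold change -0.39, adjusted p = 0.0584). *Snora81* gave 2.92, 4.70 and 3.82 in Ctrl libraries and 3.07, 3.92 and 3.25 in cKO-labelled libraries, with overlapping groups (log2 fold change -0.11, SE 0.21, adjusted p = 0.670). Within each library, the log2 ratio of *Snord2* to *Eif4a2* was -4.80, -4.91 and -5.29 in Ctrl libraries and -6.31, -6.26 and -6.49 in cKO-labelled libraries, a difference of -1.36, and that of *Snora81* to *Eif4a2* differed by -0.90. Neither ratio overlapped between groups, and in each case the exact two-sided permutation test over 20 assignments gave p = 0.1, the smallest this design allows (0.133 adjusted over 4 ratios). Such a ratio is free of library scaling but for the pseudocount of 1 added to both values.

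A snoRNA lies inside an intron of its host on the same strand, so reads of the snoRNA and of unspliced host RNA cannot be told apart in its row. The end of *Eif4a2* also overlaps *Rfc4*, which encodes a subunit of a DNA clamp loader and gave 73.2, 65.8 and 79.2 in Ctrl libraries and 42.1, 35.9 and 40.7 in cKO-labelled libraries (log2 fold change -0.86, SE 0.10, adjusted p = 7.86e-07), the opposite direction to *Eif4a2*. *Eif4a1* (chromosome 11, 69666936 to 69672423, minus strand) holds 3 annotated snoRNA genes, whose levels were not analysed here. *Eif3a* and *Eif4g2* hold 1 such gene each, also not analysed here. *Snord66*, in *Eif4g1*, had between 3 and 14 reads per library and no call (adjusted p = 0.852), and its log2 ratio to *Eif4g1*, the other one compared, differed by 0.53 with overlapping groups (exact permutation p = 0.2).

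**Figure D4:**
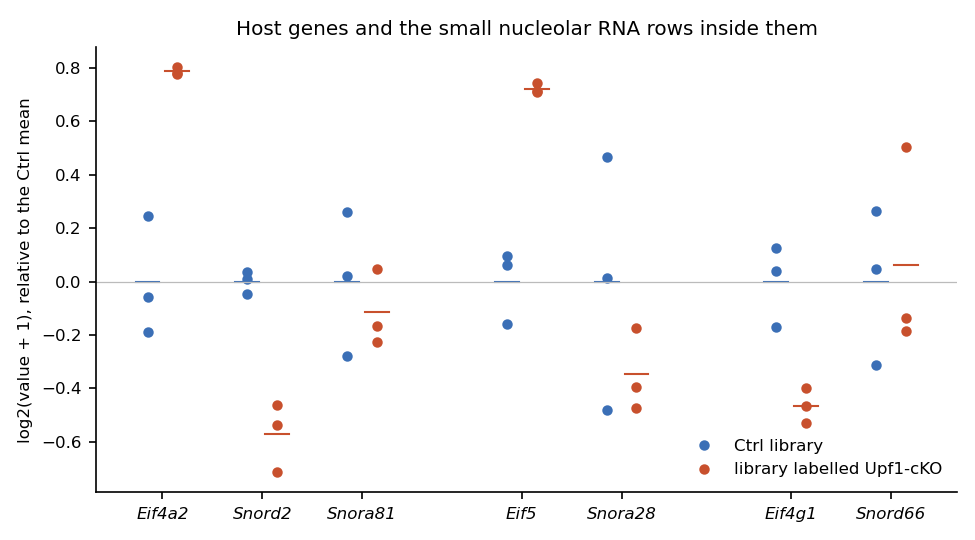
log2(value + 1) of host genes and of the snoRNA rows inside them, relative to the mean of the Ctrl libraries of the same row, with 1 point per library and lines at group means. *Eif4a2* and *Eif5* rise by 0.79 and 0.72 in the libraries labelled Upf1-cKO, and *Snord2* falls by 0.57.

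eIF3 is the largest of the factors and binds the small ribosomal subunit, to which it helps recruit the mRNA. Of its 14 rows, 9 were lower, none was higher and 5 were not called, and the median log2 fold change was -0.37, below 0 under the 4 scalings with 7 to 11 genes lower. The subunits called lower were *Eif3b*, *Eif3e*, *Eif3f*, *Eif3g*, *Eif3h*, *Eif3i*, *Eif3k*, *Eif3l* and *Eif3m*, with log2 fold changes between -0.62 and -0.24. Of these, *Eif3m* fell most, with 110.0, 119 and 101 in Ctrl libraries and 69.7, 69.0 and 74.6 in cKO-labelled libraries. Its groups were well apart, and the level was 35.3% lower (log2 fold change -0.62, SE 0.086, adjusted p = 7.98e-06). *Eif3f*, which with *Eif3h* and *Eif3m* belongs to the subunits that share PCI or MPN domains, gave 202, 200.0 and 165 in Ctrl libraries and 131, 121 and 129.9 in cKO-labelled libraries (log2 fold change -0.56, SE 0.086, adjusted p = 2.46e-05). *Eif3h* gave 143, 149 and 154 in Ctrl libraries and 108, 113 and 111 in cKO-labelled libraries (log2 fold change -0.43, SE 0.076, adjusted p = 1.16e-04). Groups did not overlap for these 3 genes. *Eif3g* and *Eif3i* encode subunits that form a module with eIF3b, and gave 122, 173 and 142 and 86.9, 103 and 95.5 in Ctrl libraries. In cKO-labelled libraries they gave 99.7, 95.1 and 94.4 and 63.7, 62.8 and 69.1, again without overlap (log2 fold change -0.58, adjusted p = 1.13e-04, and -0.54, adjusted p = 5.29e-05). *Eif3e* and *Eif3l* fell by similar amounts, -0.45 (adjusted p = 1.91e-04) and -0.44 (adjusted p = 1.08e-04).

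The other lower calls in eIF3 depended on which libraries were kept. *Eif3k* gave 109, 119 and 90.7 in Ctrl libraries and 81.2, 80.3 and 93.5 in cKO-labelled libraries, with groups that overlapped in Upf1-cKO replicate 3 and Ctrl replicate 3 (log2 fold change -0.31, SE 0.10, adjusted p = 0.0130). It was not called without Ctrl replicate 2, Upf1-cKO replicate 1 or Upf1-cKO replicate 2 (log2 fold change -0.23, -0.28 and -0.27, adjusted p = 0.0750, 0.0638 and 0.0696). *Eif3b*, the scaffold of the module with eIF3g and eIF3i, gave 385, 510.3 and 477 in Ctrl libraries and 376, 410.4 and 369 in cKO-labelled libraries, also with overlap (log2 fold change -0.24, SE 0.091, adjusted p = 0.0348). It was not called without Ctrl replicate 2 or 3 or Upf1-cKO replicate 1 or 3 (log2 fold change between -0.22 and -0.15, adjusted p between 0.0950 and 0.163). Both calls were also lost with scaling to total reads (adjusted p = 0.359 and 0.789), and that of *Eif3b* with quantile normalization (adjusted p = 0.710).

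Among the eIF3 genes that were not called, *Eif3a*, the largest subunit, gave 453, 532 and 779.7 in Ctrl libraries and 457, 559 and 423 in cKO-labelled libraries. Ctrl replicate 3 stood above the other 5 libraries, which overlapped (log2 fold change -0.27, SE 0.24, adjusted p = 0.406). *Eif3c*, which encodes the other core scaffold, gave 319.6, 384 and 399 in Ctrl libraries and 322, 345 and 305 in cKO-labelled libraries (log2 fold change -0.18, SE 0.085, adjusted p = 0.0893), and without Ctrl replicate 1 it passed the threshold (log2 fold change -0.27, adjusted p = 0.00294). *Eif3d*, whose protein can bind the cap, ran from 77.7 to 89.4 in Ctrl libraries and from 71.4 to 75.7 in cKO-labelled libraries (adjusted p = 0.123). *Eif3j1*, for a loosely bound subunit, gave 27.1, 39.2 and 47.8 in Ctrl libraries and 45.3, 49.5 and 45.1 in cKO-labelled libraries. The highest Ctrl library lay within the range of the cKO-labelled ones (log2 fold change 0.32, SE 0.16, adjusted p = 0.117), and without Ctrl replicate 3 the gene was called higher (log2 fold change 0.50, adjusted p = 0.00282). Its near-identical copy *Eif3j2* gave 0.372, 0.960 and 0.844 in Ctrl libraries and 0.342, 0.947 and 0.717 in cKO-labelled libraries (log2 fold change -0.048, SE 0.23, adjusted p = 0.877). This came to between 3 and 10 reads per library, at which depth a small change could go undetected, and reads could be split between the copies.

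The factors that scan for the start codon, eIF1 and eIF1A, have 4 gene copies between them in the table, and 1 copy of each was lower. *Eif1ax*, the X-linked eIF1A gene, gave 109, 141 and 138 in Ctrl libraries and 80.3, 79.5 and 67.8 in cKO-labelled libraries. The highest cKO-labelled library was below the lowest Ctrl library, with a mean level 41.5% lower (log2 fold change -0.76, SE 0.10, adjusted p = 5.73e-06). *Eif1a* gave 57.8, 75.7 and 78.8 in Ctrl libraries and 71.3, 79.3 and 70.4 in cKO-labelled libraries and was not called (adjusted p = 0.620). *Eif1b* gave 46.5, 48.8 and 47.2 in Ctrl libraries and 28.5, 29.0 and 31.7 in cKO-labelled libraries. Its groups did not overlap, and its level was 37.4% lower (log2 fold change -0.66, SE 0.10, adjusted p = 1.74e-05). *Eif1*, the other eIF1 copy, gave 62.2, 73.7 and 69.7 in Ctrl libraries and 72.5, 81.3 and 71.5 in cKO-labelled libraries (log2 fold change 0.13, SE 0.092, adjusted p = 0.241), and was called higher with scaling to total reads (log2 fold change 0.33, adjusted p = 0.00750). *Eif1ad*, which encodes an eIF1A domain protein, was near the same level in both groups, 110.5 ± 9.32 (SD, n = 3) and 111 ± 4.09 (SD, n = 3). The median of this group was 0.0048, and it was -0.10 with median centring and 0.21 with total reads. Because these copies are close in sequence, reads may have been assigned to the wrong one.

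eIF2 is a trimer, and 1 of its 3 genes was lower. *Eif2s3x*, the X-linked gene of the gamma subunit, gave 134, 186 and 150.4 in Ctrl libraries and 125, 115 and 112 in cKO-labelled libraries. Groups did not overlap, and Ctrl replicate 2 was the highest (log2 fold change -0.41, SE 0.10, adjusted p = 0.00242), and with scaling to total reads the call was lost (adjusted p = 0.0958). Its Y-linked copy was not analysed here. Of 5 sex-linked genes listed, only *Xist*, the RNA of the inactive X chromosome, was analysed, and it was between 2662 and 3266 in all 6 libraries, so that no library was without it as one from males would be (adjusted p = 0.0507). *Eif2s1*, the alpha subunit that stress kinases phosphorylate, gave 99.4, 122 and 131 in Ctrl libraries and 98.1, 104 and 101 in cKO-labelled libraries (log2 fold change -0.21, SE 0.094, adjusted p = 0.0720) and was called lower without Ctrl replicate 1 (log2 fold change -0.32, adjusted p = 0.00214). *Eif2s2*, the beta subunit, gave 78.2, 96.5 and 127 in Ctrl libraries and 108, 120.1 and 100.4 in cKO-labelled libraries. Ctrl replicate 3 exceeded every other library (log2 fold change 0.15, SE 0.15, adjusted p = 0.449), and without it the gene was called higher (log2 fold change 0.33, adjusted p = 0.0103). *Eif2a* and *Eif2d* encode single-chain proteins outside the trimer that can deliver tRNA, and neither was called (log2 fold change -0.11 and 0.038, adjusted p = 0.266 and 0.765). With median centring *Eif2a* and *Eif2s1* were also called lower, and with scaling to total reads no gene of the eIF2 group was called.

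eIF2B had no lower call in the deposited scaling, and 2 of its 5 genes were higher. *Eif2b3*, the gamma subunit of its catalytic part, gave 17.5, 22.9 and 21.9 in Ctrl libraries and 28.9, 31.8 and 27.8 in cKO-labelled libraries. Every cKO-labelled library was above every Ctrl library, at 1.42 times the Ctrl mean (log2 fold change 0.49, SE 0.12, adjusted p = 0.00257). *Eif2b2*, the beta subunit of the regulatory part, gave 57.5, 64.9 and 53.2 in Ctrl libraries and 67.1, 72.9 and 74.9 in cKO-labelled libraries. The gap between groups was small beside their spread (log2 fold change 0.29, SE 0.094, adjusted p = 0.0147). Its call was lost without Ctrl replicate 3, Upf1-cKO replicate 2 or Upf1-cKO replicate 3 (log2 fold change 0.22, 0.28 and 0.26, adjusted p = 0.0616, 0.0565 and 0.0744) and with median centring (adjusted p = 0.110). *Eif2b1*, *Eif2b4* and *Eif2b5* had log2 fold changes of -0.11, 0.087 and 0.13 with overlapping groups, and with scaling to total reads *Eif2b4* and *Eif2b5* were called higher (adjusted p = 0.0352 and 0.00323). The group median was 0.13 and stayed above 0 under the 4 scalings.

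The genes named eIF5 encode unlike proteins. *Eif5*, the GTPase-activating protein of eIF2 at the start codon, gave 273, 319 and 326 in Ctrl libraries and 499.6, 502 and 511 in cKO-labelled libraries. The lowest cKO-labelled library was far above the highest Ctrl library, and the mean rose from 306 ± 28.6 (SD, n = 3) to 504 ± 6.20 (SD, n = 3), a ratio of 1.65 (log2 fold change 0.72, SE 0.077, adjusted p = 3.01e-07). The snoRNA row inside it, *Snora28*, had between 9 and 28 reads per library and normalised reads of 1.01, 2.88 and 1.84 in Ctrl libraries and 1.02, 1.49 and 1.14 in cKO-labelled libraries, with overlapping groups (adjusted p = 0.244). Its log2 ratio to *Eif5* was -7.09, -6.37 and -6.85 in Ctrl libraries and -7.95, -7.66 and -7.90 in cKO-labelled libraries, with no overlap (difference -1.07, exact permutation p = 0.1).

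*Eif5a* encodes the hypusine-containing factor that helps ribosomes through difficult peptide bonds in elongation, and gave 802, 1077 and 970.3 in Ctrl libraries and 592, 624 and 624 in cKO-labelled libraries. Every cKO-labelled library was below the Ctrl range, and the level was 35.4% lower (log2 fold change -0.62, SE 0.088, adjusted p = 1.14e-05). Its locus overlaps *Gps2*, which had a mean of 44.4 in Ctrl libraries and 38.5 in cKO-labelled libraries and was not called (adjusted p = 0.159). *Eif5a2*, the paralogue, gave 8.98, 8.84 and 10.1 in Ctrl libraries and 8.44, 11.1 and 10.3 in cKO-labelled libraries and was not called (adjusted p = 0.679). *Eif5b*, which joins the ribosomal subunits, ran from 133 to 208 in Ctrl libraries, with Ctrl replicate 3 the highest, and from 128 to 160.2 in cKO-labelled libraries (adjusted p = 0.336). *Eif6*, which keeps the large subunit from joining too early, gave 106, 129 and 107 in Ctrl libraries and 112, 98.9 and 112 in cKO-labelled libraries, with overlapping groups (log2 fold change -0.080, SE 0.091, adjusted p = 0.482).

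Related members were also set against each other within each library, where library scaling cancels but for the pseudocount of 1. Of 9 such ratios, 6 did not overlap between groups, and each of these had an exact two-sided permutation p = 0.1, the smallest that 3 against 3 libraries allow (0.15 adjusted over 9). Groups also did not overlap for 58.8% of all single rows, and the share for ratios of other genes was not measured. The largest difference was in the 4E-BPs, where the log2 ratio of value + 1 of *Eif4ebp2* to *Eif4ebp1* was 2.09, 2.03 and 2.48 in Ctrl libraries and 0.59, 0.61 and 0.53 in cKO-labelled libraries. Such a ratio of reads is not one of levels, since the genes differ in length, and only its difference between groups (-1.62) is read here. With each gene divided by its exon length, *Eif4ebp2* was at 1.67 ± 0.314 times the level of *Eif4ebp1* in Ctrl libraries and at 0.521 ± 0.0157 times in cKO-labelled libraries (SD, n = 3), so that the order of the pair turned. The log2 ratio of *Eif4a2* to *Eif4a1* was -0.37, -0.65 and -0.22 in Ctrl libraries and 0.79, 0.82 and 0.81 in cKO-labelled libraries. The difference was 1.22, and per length *Eif4a2* went from 0.420 ± 0.0617 to 0.971 ± 0.0110 times the level of *Eif4a1* (SD, n = 3). For the eIF1A genes, *Eif1ax* went from 1.48 ± 0.0547 to 0.830 ± 0.0686 times the level of *Eif1a* per length (difference -0.83 in the log2 ratio of reads). For the eIF1 genes, *Eif1b* went from 0.889 ± 0.0575 to 0.508 ± 0.0558 times that of *Eif1* (difference -0.79). *Eif5a2* and *Eif4g3*, the lower gene of their pairs per length in both groups, gained on *Eif5a* and *Eif4g1*, by 0.70 and 0.54 in the log2 ratio. The ratios of *Eif4e2* to *Eif4e* (difference -0.11, exact permutation p = 0.3), *Eif4g2* to *Eif4g1* (0.030, p = 0.8) and *Eif3j2* to *Eif3j1* (-0.37, p = 0.2) overlapped between groups.

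**Figure D5:**
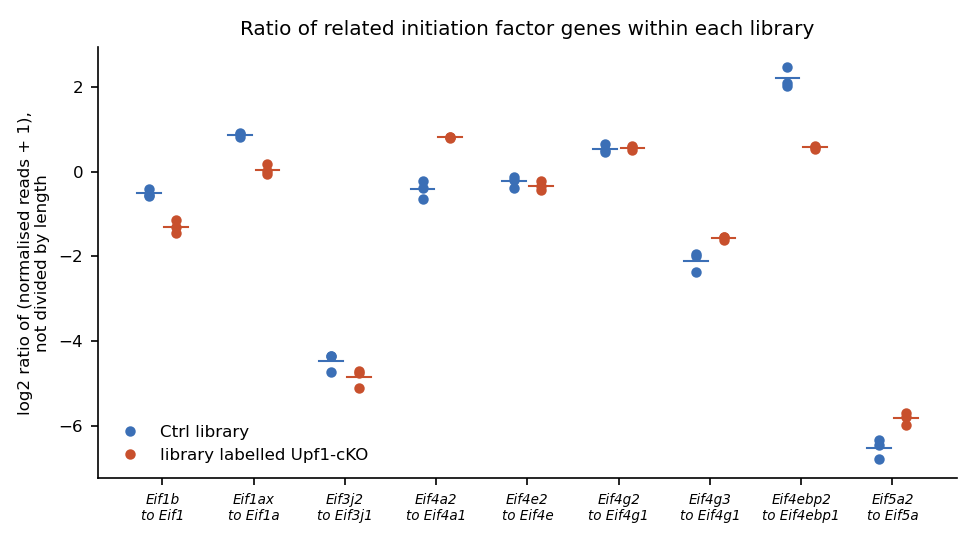
Log2 ratio of normalised reads plus 1, not divided by gene length, of 9 pairs of related initiation factor genes within each library, with 3 Ctrl libraries in blue, 3 libraries labelled Upf1-cKO in red and lines at group means, so that differences between groups can be read but not which gene of a pair was higher. The groups are apart in 6 pairs, most in *Eif4ebp2* to *Eif4ebp1* (difference -1.62) and *Eif4a2* to *Eif4a1* (difference 1.22).

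To compare genes with one another, normalised reads were divided by exon length in kilobases (kb), with all members matched to a length. In Ctrl libraries the highest level per kb was that of *Eif5a*, 399 ± 58.4 (SD, n = 3), followed by *Eif4a1* at 241 ± 33.5, and their ranges of 1 SD did not meet. *Eif4h* and *Eif4b* came next, at 198 ± 15.4 and 197 ± 23.0, and did not differ beyond their spread. Apart from *Eif3d* and the eIF3j genes, the eIF3 subunits lay between 75.2 and 155 per kb. *Eif4a2* stood at rank 14 of 48 with 101 ± 16.0 in Ctrl libraries and at rank 3 with 173 ± 1.60 in cKO-labelled libraries, next to *Eif4a1* at 178 ± 1.22. *Eif5* moved from rank 19 to rank 7 (72.6 ± 6.79 and 119.6 ± 1.47). *Eif2b3* and *Eif5a2* were among the lowest in both groups, at 5.15 and 1.85 per kb in Ctrl libraries, and *Eif3j2* was the lowest.

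Promoters of RefSeq (GRCm38.p6, from 250 bases before to 50 after each annotated start) were at hand for 37 of the 48 members and were searched for letters that are bound by, or mark, known regulators of growth genes. The E-box CACGTG, the same on both strands and the core that MYC and related factors bind, was found in 10 members (27.0%) and in 11.7% of 10193 genes with a promoter. Of these 10 members, 8 were called lower, none higher and 2 were not called, and of the 27 members without it 9 were lower and 3 higher. Over all genes, 24.9% of those with the letters and 25.3% of those without were called lower. The members with the letters were *Eif1b*, *Eif3a*, *Eif3f*, *Eif3k*, *Eif4a1*, *Eif4e*, *Eif4g1*, *Eif4h*, *Eif5a* and *Eif5a2*, and genes with several annotated starts had more bases searched. A match is only a match of letters. The 6 windows that lie wholly before the gene are shown with the E-box in capitals, each as 36 bases on the strand of its gene in GRCm38.p6, since these promoters belong to members called lower.
Eif1b (chr9:120492567-120492602, plus strand, first letter of the E-box 24 bases before the start): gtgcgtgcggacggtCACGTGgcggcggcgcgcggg
Eif3f (chr7:108934332-108934367, plus strand, 68 bases before): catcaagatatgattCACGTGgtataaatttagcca
Eif3k (chr7:28981912-28981947, minus strand, 44 bases before): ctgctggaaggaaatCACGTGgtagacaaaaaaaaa
Eif4a1 (chr11:69672592-69672627, minus strand, 189 bases before): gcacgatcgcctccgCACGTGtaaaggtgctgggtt
Eif4g1 (chr16:20672658-20672693, plus strand, 54 bases before): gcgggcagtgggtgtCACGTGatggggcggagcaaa
Eif4h (chr5:134639485-134639520, minus strand, 96 bases before): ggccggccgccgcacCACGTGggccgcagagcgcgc

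The letters TGATGNAA, searched on both strands as those of an ATF4 element, were in 1 member, *Eif2s3x* (2.70%, against 2.89% of all genes). A C followed by at least 4 pyrimidines at the annotated start, as in mRNAs with a terminal oligopyrimidine tract, was in *Eif2s3x* and *Eif3f* (5.41%, against 3.07%). *Eif2s3x* and *Eif3f* were both called lower. Over all genes, 23.1% of those with TGATGNAA and 25.3% of those without were called lower. For the pyrimidine start these shares were 27.5% and 25.2%.

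GENCODE lists a transcript with the NMD biotype for 10 of the 48 (20.8%), against 29.3% of 11970 protein-coding rows. Of the 10, *Eif4a2* and *Eif5* were higher, *Eif3k*, *Eif4a1* and *Eif4g1* were lower, and *Eif2a*, *Eif2b1*, *Eif2d*, *Eif3c* and *Eif6* were not called. With 2 of 10 higher and 3 of 10 lower, their shares were near those of all rows (27.7% and 25.0%). Counts per gene do not tell such transcripts from the others. Because reads were handled as unstranded in alignment and no use of strand in counting is stated, members that overlap another gene are less certain. There were 22 of these, with 3 higher and 7 lower, and among the 26 with no overlap 2 were higher and 14 lower.

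Genes that act with the initiation factors were taken from lists, and are set beside the shares of all rows called (27.7% higher and 25.0% lower). Of 9 genes made up of *Atf4* and those for eIF2 kinases, phosphatases and cofactors of the kinase GCN2, 5 were higher and 2 lower, with a median log2 fold change of 0.32. *Atf4*, the transcription factor translated when eIF2 is phosphorylated, gave 70.2, 86.7 and 73.4 in Ctrl libraries and 196, 186 and 210.4 in cKO-labelled libraries (log2 fold change 1.36, SE 0.089, adjusted p = 6.54e-10). *Eif2ak2*, the kinase PKR, gave 43.2, 46.0 and 48.2 in Ctrl libraries and 103, 103 and 102 in cKO-labelled libraries (log2 fold change 1.15, SE 0.085, adjusted p = 2.82e-09). *Impact*, an inhibitor of GCN2 activation, was also higher (log2 fold change 1.01, SE 0.11, adjusted p = 6.15e-07), with no overlap between groups for any of the 3. Of 23 genes for partners of eIF4F and for TOR control, 8 were higher and 5 lower, with a median of 0.12. *Ddit4* and *Sesn2*, inhibitors of TOR complex activity, were higher (log2 fold change 1.86, adjusted p = 0.0443, and 1.49, adjusted p = 3.12e-06), and *Pabpc1*, the poly(A)-binding protein that binds eIF4G, gave 2005, 2340.4 and 2177 in Ctrl libraries and 1147, 1156 and 1166 in cKO-labelled libraries (log2 fold change -0.91, SE 0.069, adjusted p = 4.35e-09).

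Of 9 other start-codon and initiation factors, 5 were lower and none higher, with a median of -0.24. *Bzw2*, *Bzw1* and *Mcts1* had log2 fold changes of -0.42, -0.36 and -0.35 (adjusted p = 0.00176, 7.00e-04 and 0.0494), the first pair encoding mimics of eIF5. Of the 2 enzymes that place hypusine on eIF5A, *Dhps* was higher (log2 fold change 0.95, SE 0.13, adjusted p = 5.11e-06), whereas its substrate gene *Eif5a* was lower and *Dohh* was not called (adjusted p = 0.513). The list of elongation genes, which also held enzymes that act on the factors, had 5 of 10 genes lower and 1 higher, with a median of -0.17. The 5 lower genes all encode parts of eEF1 or eEF2, and the 1 higher gene was *Eef2k*. *Eef1a1*, which delivers aminoacyl-tRNA, fell (log2 fold change -0.67, SE 0.066, adjusted p = 1.14e-07), as did *Eef1g* (log2 fold change -0.58, adjusted p = 1.98e-05), and *Eef2k*, the kinase that inhibits eEF2, rose (log2 fold change 0.91, SE 0.083, adjusted p = 4.55e-08). Termination and rescue factors had 3 of 4 genes lower and none higher, with a median of -0.54 over *Pelo*, *Gspt1*, *Etf1* and *Hbs1l* (log2 fold changes -1.02, -0.63, -0.45 and 0.083, adjusted p = 2.90e-05, 5.02e-06, 2.86e-04 and 0.511). Mitochondrial translation factors had 4 of 10 higher and 2 lower, with a median of 0.02. Among them *Mtrf1l*, a release factor, was higher (log2 fold change 1.37, SE 0.11, adjusted p = 8.36e-09), as was *Guf1* (log2 fold change 0.59, adjusted p = 1.55e-05), and *Tufm* was lower (log2 fold change -0.59, adjusted p = 4.31e-05).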

How the data were processed

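RNA of sorted early LPre-B cells from 3 Ctrl and 3 Upf1-cKO libraries had been depleted of ribosomal RNA, prepared with a directional kit and sequenced from a single end. Per the study's methods and the submitters' processing notes, reads were trimmed with cutadapt 4.0, aligned to mm10 (GRCm38) with HISAT2 (unstranded) and assigned to genes with featureCounts 2.0.1, and limma 3.48.0 was used. The authors deposited 1 table of linear signal, with Entrez identifiers. As its values show, the unit is whole reads plus 0.5 per 1e6 reads of an effective library size, called normalised reads here. Whole reads were recovered for 100% of values (each value over its library's smallest lay within 0.01, or within 0.001% where that is more, of a whole number). A floor of 3 reads equals between 0.253 and 0.319 normalised reads and covers counting error only. Every row exceeded 0.5 in at least 3 libraries.

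RefSeq annotation of GRCm38.p6 named 13008 of 13426 rows, GENCODE M21 named 3 more and 415 stayed unnamed. Exon lengths are merged exons of GENCODE basic transcripts. Groups and replicate numbers came from the sample labels. limma 3.58.1 in R 4.3.3 was run on log2(value + 1) over all rows, with group as the only term, eBayes with an intensity trend and robust estimation, and Benjamini-Hochberg adjustment. A gene was called at an adjusted p below 0.05, and SE are limma's moderated ones. Fold changes on this scale understate those of low genes. Ratios were compared with exact two-sided permutation tests over the 20 assignments of 6 libraries. Chi-square per degree of freedom between libraries of 1 group lay between 4.39 and 22.0, above sampling noise, so no library was a repeat of another. The fit was tested on simulated data.

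The members and gene lists were chosen with earlier results of these data known. Values in every library are given for *Upf1*, the 5 members with the largest rises and falls among those called, the largest change in each factor group, every member of a related pair, and *Eif4a1* and *Eif4a2* with the snoRNA rows inside them, and for further members where a call depended on a library. At most 3 genes per list are named, by absolute log2 fold change among those called. *Hbs1l*, *Dohh*, *Gas5*, *Ddit3*, *Gadd45b*, the cell type markers and the genes that overlap members are named beyond that rule. Alternatives were median centring, quantile normalization and total reads for scaling, voom weights, DESeq2 1.42.0 and edgeR 4.0.16 run on whole reads, a fit without trend, the replicate block, a pseudocount of 0.1, a minimum mean log2 value of 3 and leaving out each library.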

Additional observations from a re-analysis of the deposited data

How the results depend on the processing

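With voom weights, edgeR, a pseudocount of 0.1 and the replicate block, 5, 5, 5 and 6 members were called higher and 21 lower each time. A minimum mean log2 value of 3, and DESeq2, each added *Eif4enif1* to the lower calls, giving 22, and leaving out the intensity trend lost *Eif2b2*, *Eif3b*, *Eif3k* and *Eif4e*, giving 4 higher and 18 lower. Scaling moved the values most, and the cause was not tested. The median log2 fold change of the members was -0.19 as deposited, -0.30 with median centring and 0.012 with total reads, where it reversed and 10 members were called higher. For eIF3 the median was -0.37 as deposited, -0.48 with median centring and -0.17 with total reads. For eIF4 it was -0.30, -0.41 and -0.097, and -0.13 with quantile normalization. Leaving out each library in turn gave medians of the members between -0.28 and -0.15, the lowest without Ctrl replicate 1, with 4 to 6 higher and 19 to 23 lower calls. Of the related pairs, the difference of *Eif4g2* to *Eif4g1* was 0.030 and lay between -0.0073 and 0.084, reversing without Ctrl replicate 3, and the other 8 kept their direction.

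Correlations of deviations between same-numbered libraries were 0.082, -0.030 and -0.021, and those between differently numbered ones ran from -0.107 to 0.126. Same-numbered libraries carry adjacent numbers in the authors' column names. With 3 libraries per group, these correlations cannot settle whether the replicate numbers mark pairs. With the number as a block, *Eif3j1* was added to the higher calls (log2 fold change 0.32, adjusted p = 0.0474) and no call was lost. With 3 libraries per group no ratio could reach a p below 0.1, and at 3 to 10 reads per library a small change of *Eif3j2* could go undetected.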
